A study of Homo sapiens with 6 samples.

Results

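Genes of the intermediate filament and actin contractile systems were followed as a set of 10 named by symbol. The filament genes were VIM, KRT8, KRT18, KRT19 and LMNA, and the contractile genes were TAGLN, TPM1, ACTA2, MYL9 and CNN1. All 10 of 10 were found among the 53715 genes of the count table, and all 10 were among the 19156 genes with enough counts to test. In GENCODE v29 (GRCh38) the 5 genes called higher against sO-L1 (described after the groups) span chr10:17228259-17237593 (VIM, plus strand), chr1:156082573-156140089 (LMNA, plus), chr17:41523617-41528308 (KRT19, minus), chr11:117199321-117204782 (TAGLN, plus) and chr15:63042632-63071915 (TPM1, plus). KRT8 and KRT18 are neighbours on chromosome 12 whose spans overlap on opposite strands.

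Intermediate filaments are rope-like polymers that give cells and nuclei mechanical strength. Vimentin is the filament protein of mesenchymal and many undifferentiated cells. Keratins belong to epithelia and polymerise only as pairs of an acidic and a basic chain, and lamins line the inner face of the nuclear envelope. Contractile bundles are actin filaments that are wrapped by tropomyosin, pulled by myosin II and bound by calponin and transgelin. Primed pluripotent stem cells grow as an epithelium. Many contractile genes are targets of serum response factor (SRF) and its actin-sensing partners, the MRTFs.

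The cells were H9, an established line of primed human embryonic stem cells, given 1 of 3 fluorescein-tagged oligonucleotides at 25 nM. ASO-Ctr was a non-targeting antisense oligo, sO-L1 a sense oligo of the LINE1 (L1) transposable element and ASO-L1 an antisense oligo against L1, with 2 libraries each. Poly(A) RNA was taken at 48 hours from cells sorted for the tag. Until 24 hours all groups, controls included, were also kept in 10 uM of Y-27632, which blocks the kinase ROCK upstream of myosin II, 5 uM of the caspase inhibitor emricasan and 0.7 uM of trans-ISRIB, an inhibitor of the integrated stress response. For the medium after transfection, the sample labels give mTeSR and the series' design text gives RSeT. The stated question is how L1 acts on genes of the 8-cell stage. The level of L1 itself was not analysed here, so the group labels were not checked against the target.

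The libraries held 18897936 to 67192937 counts, the shallowest being ASO-Ctr replicate 1. The labels do not say whether the 2 replicates are separate cultures, so p-values measure only the spread between these libraries, which may be technical. With 2 libraries against 2, an exact permutation test of 1 gene cannot go below p = 0.333, so the tests use a model that shares the spread across genes. Levels are CPM, counts scaled to library size with TMM factors. Log2 fold changes are given ± SE. Adjusted p-values come from a quasi-likelihood fit in edgeR that holds the replicate number as a block, with Benjamini-Hochberg adjustment over all 19156 genes, and a gene was called under 0.05. The value without the block stands beside each call of the 10 genes and of the other cytoskeletal genes named, and cell type markers are given with the block. Pluripotency markers summed to 9226 to 9916 CPM over the libraries, with all 12 detected. Within that list SOX2 and SALL4 were higher in ASO-L1 than in sO-L1 (log2 0.20 and 0.15, adjusted p = 0.00117 and 0.0185), and DNMT3B, NANOG and ZFP42 were lower (-0.22, -0.17 and -0.17, adjusted p = 3.2e-04, 0.0128 and 0.00642). In bulk RNA, fewer cells of a type and less RNA per cell cannot be told apart.

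In ASO-L1 against sO-L1, VIM, LMNA, TAGLN, KRT19 and TPM1 were higher, and KRT8, KRT18, ACTA2, MYL9 and CNN1 were not called. These 5 of 10 called higher stood beside 10.3% of all genes called higher in that comparison (23.0% called in either direction). The 10 genes were chosen with earlier results of these data known, so the shares in this paragraph are descriptive and no test of the set. In ASO-L1 against ASO-Ctr, 6 of 10 were higher (the same 5 and KRT18) and 1, MYL9, was lower, beside 9.88% of all genes called higher and 11.6% lower (21.5% in all). In sO-L1 against ASO-Ctr, edgeR called 0 of 10, beside 1.72% of all genes (0.658% higher and 1.06% lower). There, 3 of the 10 had an unadjusted p under 0.05 in edgeR, beside 12.8% of all genes. It was 2 with DESeq2 (5.85% of all genes), 3 with limma-voom (10.3%) and 1 with edgeR without the block (2.97%). DESeq2 and limma-voom also called 0. However, DESeq2 gave no adjusted p for TAGLN, ACTA2, MYL9 and CNN1 there, so it could not call them. Both ASO-L1 comparisons share the ASO-L1 libraries. Without the replicate block, 1 of 10 was called against sO-L1, LMNA, beside 0.914% of all genes called higher and 0.924% lower (1.84% in all). Against ASO-Ctr it was 2 of 10, KRT19 and LMNA, beside 0.903% higher and 1.05% lower (1.95% in all). The median log2 fold change of the 10 was 0.10 for ASO-L1 over sO-L1, 0.16 for ASO-L1 over ASO-Ctr and -0.01 for sO-L1 over ASO-Ctr, where the median over all genes tested lay within 0.01 of 0. With 2 libraries a group, groups that do not overlap are common: this held for 47.1% of all genes for ASO-L1 over sO-L1 (4 of the 10), 48.6% for ASO-L1 over ASO-Ctr (5 of the 10) and 29.7% for sO-L1 over ASO-Ctr (4 of the 10). A separation of groups below is read against these shares, which are for 1 comparison at a time and in either direction.

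**Figure D1:**
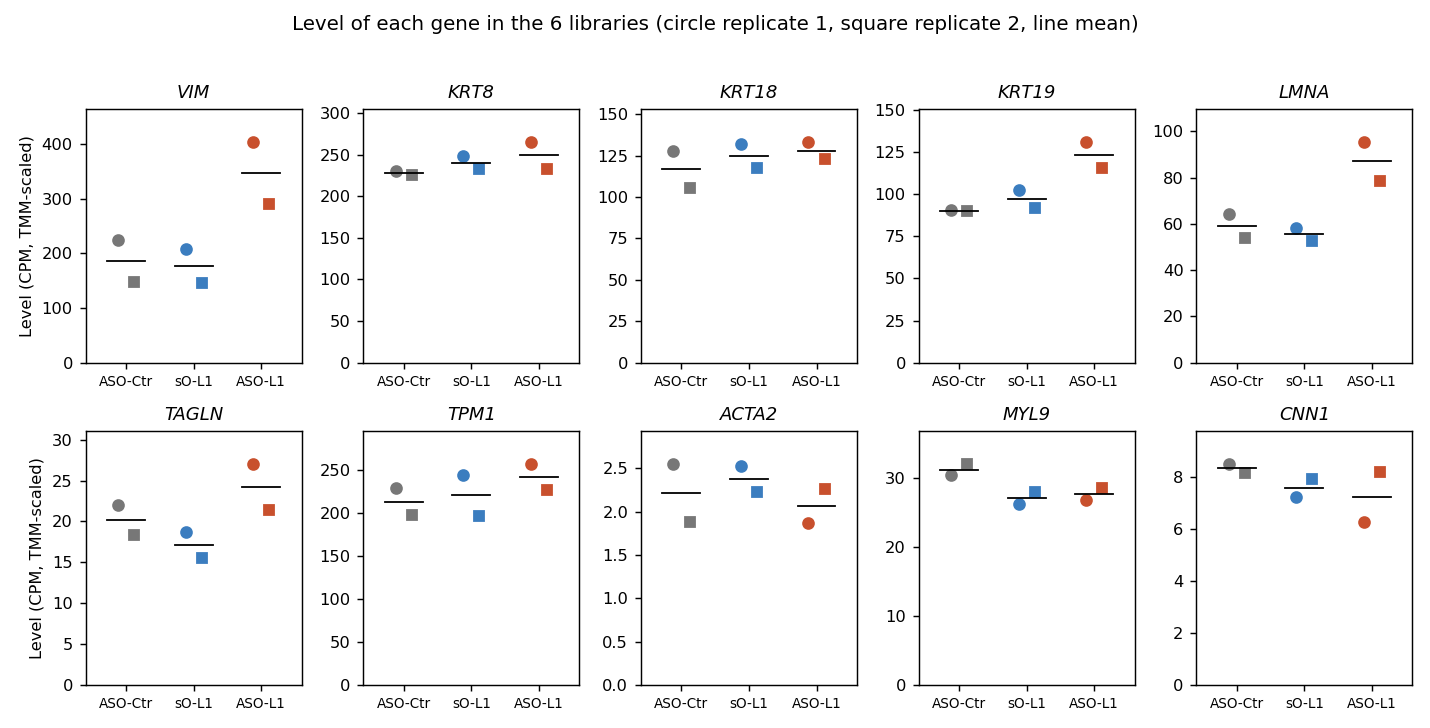
Level of each of the 10 genes in CPM (vertical axis, from 0, with its own scale in each panel) in ASO-Ctr, sO-L1 and ASO-L1. Circles are replicate 1, squares replicate 2 and lines the mean of 2 libraries. VIM, LMNA and KRT19 are higher in both ASO-L1 libraries than in the 4 other libraries. Of all 19156 genes tested, 47.1% separated from sO-L1 and 48.6% from ASO-Ctr in either direction (4523 and 4559 genes higher in ASO-L1). The share above all 4 other libraries at once was not computed.

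VIM encodes vimentin. Its level was 225 and 147 CPM in ASO-Ctr (replicates 1 and 2), 207 and 145 CPM in sO-L1, and 403 and 290.1 CPM in ASO-L1. Both ASO-L1 libraries were above the other 4, and the ASO-Ctr and sO-L1 libraries overlapped. VIM was 1.97-fold higher in ASO-L1 than in sO-L1 (log2 0.98 ± 0.05, adjusted p = 1.0e-21, n = 2 libraries per group) and 1.88-fold higher than in ASO-Ctr (log2 0.91 ± 0.05, adjusted p = 2.1e-20). By p it was the gene of rank 7 among all 19156 in the first comparison and of rank 9 in the second. By size of change it ranked 515 and 635. Replicate 1 was above replicate 2 in each group, by 0.61, 0.52 and 0.48 on the log2 scale in ASO-Ctr, sO-L1 and ASO-L1, where the median absolute difference over all genes was 0.16, 0.17 and 0.15. Within replicate 1 the log2 difference of ASO-L1 from sO-L1 was 0.96, and within replicate 2 it was 1.001. Without the block both calls were lost (adjusted p = 0.067 and 0.0853, with log2 fold changes of 0.98 and 0.91). Under 16 alternative settings the log2 fold change against sO-L1 ran from 0.94 to 1.02. Between sO-L1 and ASO-Ctr it was -0.07 ± 0.05 (95% interval -0.16 to 0.03, adjusted p = 0.621). VIM-AS1, which lies antisense at the VIM locus, had 20 to 75 counts per library against 4231 to 18395 for VIM.

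LMNA encodes lamins A and C, the A-type lamins, which are generally low in pluripotent cells. Its level was 64.1 and 54.0 CPM in ASO-Ctr, 58.3 and 52.6 CPM in sO-L1, and 95.4 and 78.7 CPM in ASO-L1. The ASO-L1 libraries lay above all 4 others, and sO-L1 and ASO-Ctr overlapped. LMNA was 1.56-fold higher than in sO-L1 (log2 0.64 ± 0.05, adjusted p = 8.1e-14, or 0.029 without the block) and 1.47-fold higher than in ASO-Ctr (log2 0.56 ± 0.05, adjusted p = 9.0e-12, or 0.0468 without the block). Of the 10 genes, LMNA was the only 1 called in both ASO-L1 comparisons under all 16 alternatives. In sO-L1 against ASO-Ctr its log2 fold change was -0.08 ± 0.05 (95% interval -0.19 to 0.03, adjusted p = 0.574).

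The B-type lamin LMNB1, present in nearly all nuclei, was not called in ASO-L1 against sO-L1 (log2 -0.07 ± 0.05, adjusted p = 0.284) or against ASO-Ctr (log2 -0.02 ± 0.05, adjusted p = 0.874). The ratio of LMNA to LMNB1, with both in CPM per kb of exon, was 0.0908 and 0.0913 for ASO-Ctr, 0.0826 and 0.0821 for sO-L1, and 0.146 and 0.126 for ASO-L1. This ratio was thus higher in both ASO-L1 libraries than in the others, and lower in both sO-L1 libraries than in ASO-Ctr. In sO-L1 against ASO-Ctr neither gene was called (LMNB1 log2 0.06 ± 0.05, adjusted p = 0.665). How often ratios of other genes separate in this way was not computed, so the separation is descriptive.

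Of 17 tested partners of the lamins in the nuclear envelope, 0 were higher and 4 lower in ASO-L1 against sO-L1, 0 and 3 against ASO-Ctr, and 0 and 1 in sO-L1 against ASO-Ctr. Over all genes 23.0%, 21.5% and 1.72% were called in these comparisons (12.7%, 11.6% and 1.06% lower). The median log2 fold changes of the 17 were -0.03, -0.00475 and 0.01, and 0 of the 17 were called without the block. SYNE2 (nesprin 2), which ties the nucleus to actin, fell by 0.20 ± 0.05 against sO-L1 and by 0.57 ± 0.05 against ASO-Ctr on the log2 scale (adjusted p = 0.00294 and 3.6e-12, or 0.538 and 0.0894 without the block). It also fell in sO-L1 against ASO-Ctr, by 0.37 ± 0.05 (adjusted p = 1.5e-05, or 1.0 without the block). LEMD3, an inner membrane protein, fell by 0.17 ± 0.05 against sO-L1 (adjusted p = 0.00846, or 0.261 without the block) and had -0.03 ± 0.05 against ASO-Ctr (adjusted p = 0.783). ICMT, which methylates prenylated proteins including lamins, fell by 0.16 ± 0.05 and 0.22 ± 0.05 (adjusted p = 0.00899 and 2.7e-04, or 0.283 and 0.138 without the block).

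KRT8 and KRT18 encode the basic and acidic keratins of simple epithelia and pair with each other. KRT8 had 230.1 and 225 CPM in ASO-Ctr, 248 and 232 CPM in sO-L1, and 265 and 233 CPM in ASO-L1. The order of group means was ASO-Ctr, sO-L1, ASO-L1, and the latter groups overlapped. KRT8 did not pass against sO-L1 (log2 0.05 ± 0.05, 95% interval -0.04 to 0.15, adjusted p = 0.494) or against ASO-Ctr (log2 0.12 ± 0.05, 95% interval 0.03 to 0.22, adjusted p = 0.0598), although the latter was called in 5 of 16 alternatives. KRT18 had 128 and 106 CPM in ASO-Ctr, 132 and 117 CPM in sO-L1, and 133 and 123 CPM in ASO-L1, with overlap between all groups. It did not pass against sO-L1 (log2 0.04 ± 0.05, 95% interval -0.06 to 0.14, adjusted p = 0.610). Against ASO-Ctr it was called (log2 0.14 ± 0.05, adjusted p = 0.0314), but not without the block (adjusted p = 0.561), without ASO-Ctr replicate 2 (log2 0.07, adjusted p = 0.534) or without ASO-L1 replicate 2 (log2 0.09, adjusted p = 0.412). The KRT18 call was also lost with DESeq2 (adjusted p = 0.0791) and with counts thinned to the shallowest library (log2 0.03, adjusted p = 0.80). The ratio of KRT8 to KRT18 in CPM per kb was 0.843 and 0.998 for ASO-Ctr, 0.878 and 0.927 for sO-L1, and 0.931 and 0.887 for ASO-L1, so both other groups fell inside the range of ASO-Ctr.

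KRT19 encodes a smaller acidic keratin that also pairs with KRT8. Its level was 90.7 and 89.9 CPM in ASO-Ctr, 103 and 91.9 CPM in sO-L1, and 131 and 116 CPM in ASO-L1, with no overlap between any groups (47.1%, 48.6% and 29.7% of all genes did not overlap in the 3 comparisons). KRT19 was 1.27-fold higher in ASO-L1 than in sO-L1 (log2 0.34 ± 0.05, adjusted p = 6.4e-07, or 0.0859 without the block) and 1.35-fold higher than in ASO-Ctr (log2 0.44 ± 0.05, adjusted p = 3.0e-09, or 0.0378 without the block). The step from ASO-Ctr to sO-L1 did not pass (log2 0.10 ± 0.05, adjusted p = 0.438). KRT19 against KRT18, in CPM per kb, had ratios of 0.978 and 1.17 for ASO-Ctr, 1.07 and 1.08 for sO-L1, and 1.36 and 1.30 for ASO-L1. Against the sum of both acidic keratins, KRT8 had ratios of 0.426 and 0.459 for ASO-Ctr, 0.424 and 0.445 for sO-L1, and 0.395 and 0.386 for ASO-L1, the lowest of the 6 libraries. The share of other gene ratios that separate like these was not computed.

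Processed copies of the simple keratins can take or lose reads of their parents. The 44 entries named as KRT8 copies summed to 3.70% to 5.07% of the KRT8 count per library. The 39 KRT18 copies summed to 0.757% to 1.33% of KRT18, and 5 KRT19 copies had 0 counts in all libraries. The KRT8 copies stood highest relative to KRT8 in ASO-L1 (5.07% and 4.47%, against 3.83% and 3.91% in ASO-Ctr and 4.12% and 3.70% in sO-L1). These shares count only reads assigned to the copies, so they do not bound the uncertainty of the KRT8 and KRT18 values. Reads that match parent and copy equally well were not measured.

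Other intermediate filament genes are given beside the 23.0% of all genes called against sO-L1 and 21.5% against ASO-Ctr. In sO-L1 against ASO-Ctr this share was 1.72%. Of 29 further keratins 4 could be tested, and edgeR called 0 of the 4 in each comparison. Without the block 0 had an unadjusted p under 0.05, beside 16.5%, 16.7% and 2.97% of all genes. KRT7, a keratin of trophoblast and glandular epithelium, had a log2 fold change of -0.08 ± 0.09 against sO-L1 (adjusted p = 0.578). Of 12 tested type III, type IV and nuclear filament genes, 3 were higher and 1 lower in ASO-L1 against sO-L1, 3 and 0 against ASO-Ctr, and 1 and 0 in sO-L1 against ASO-Ctr, with medians of -0.000743, 0.15 and 0.07. Synemin (SYNM), which copolymerises with vimentin, had 8.97 and 9.14 CPM in ASO-Ctr, 8.93 and 8.51 CPM in sO-L1, and 12.3 and 13.01 CPM in ASO-L1. SYNM rose by 0.55 ± 0.09 against sO-L1 (adjusted p = 8.3e-06, or 0.0425 without the block) and by 0.48 ± 0.09 against ASO-Ctr (adjusted p = 1.1e-04, or 0.0638). The neurofilament light chain NEFL rose by 0.31 ± 0.07 and 0.39 ± 0.07 (adjusted p = 4.5e-04 and 2.9e-05, or 0.120 and 0.0621 without the block). GFAP, the astrocyte filament, was called against sO-L1 (0.58 ± 0.18, adjusted p = 0.0126, or 0.236 without the block) and had 0.23 ± 0.17 against ASO-Ctr (adjusted p = 0.398).

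Linkers and desmosomal genes, 18 tested, had 2 higher and 3 lower in ASO-L1 against sO-L1, 0 and 3 against ASO-Ctr, and 0 and 2 in sO-L1 against ASO-Ctr. Over all genes 23.0%, 21.5% and 1.72% were called in these comparisons. Of the 18, 0 were called without the block, and the medians were -7.96e-05, -0.05 and -0.04. DST (dystonin), which joins filaments to adhesion sites, fell by 0.26 ± 0.05 and 0.78 ± 0.05 in the ASO-L1 comparisons and by 0.52 ± 0.05 in sO-L1 against ASO-Ctr (adjusted p = 2.5e-04, 8.1e-16 and 1.5e-08, or 0.496, 0.0656 and 1.0 without the block). PKP4, a plakophilin relative of cell junctions, fell by 0.20 ± 0.05 against sO-L1 and by 0.16 ± 0.05 against ASO-Ctr (adjusted p = 0.00192 and 0.015, or 0.243 and 0.337 without the block). Epiplakin (EPPK1), which binds keratin filaments, was higher against sO-L1 (0.27 ± 0.09, adjusted p = 0.0265, or 0.689 without the block) and had 0.15 ± 0.09 against ASO-Ctr (adjusted p = 0.271).

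**Figure D2:**
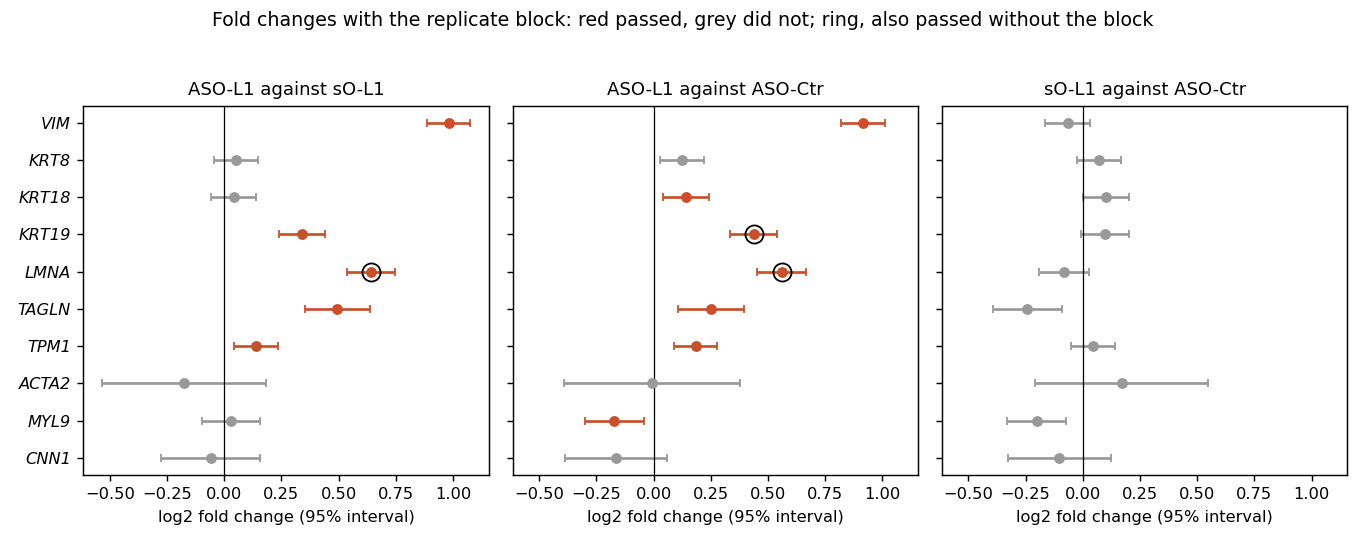
Log2 fold changes of the 10 genes (horizontal axis) with 95% intervals in the 3 comparisons, from the fit with the replicate block. Red points passed at an adjusted p under 0.05 and grey points did not, and a ring marks genes that also passed without the block: LMNA against sO-L1, and KRT19 and LMNA against ASO-Ctr.

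The contractile genes did not move as a group. TAGLN encodes transgelin (SM22), an actin-binding protein of smooth muscle and an early marker of contractile differentiation. It had 22.0 and 18.4 CPM in ASO-Ctr, 18.8 and 15.5 CPM in sO-L1, and 27.0 and 21.4 CPM in ASO-L1. ASO-L1 lay above both sO-L1 libraries, while ASO-Ctr replicate 1 was above ASO-L1 replicate 2. TAGLN was 1.41-fold higher in ASO-L1 than in sO-L1 (log2 0.49 ± 0.07, adjusted p = 5.0e-07, or 0.124 without the block). Against ASO-Ctr it was 1.19-fold higher (log2 0.25 ± 0.07, adjusted p = 0.00839, or 0.397 without the block). The call against ASO-Ctr was lost without ASO-Ctr replicate 1 (log2 0.23, adjusted p = 0.0807), without ASO-L1 replicate 1 (log2 0.22, adjusted p = 0.106) and without ASO-Ctr replicate 2 (log2 0.28, adjusted p = 0.0524), and also with DESeq2 (adjusted p = 0.0665) and with thinned counts (log2 0.21, adjusted p = 0.241). In sO-L1 against ASO-Ctr the value was -0.24 ± 0.08 (95% interval -0.39 to -0.09, adjusted p = 0.0902), so ASO-Ctr stood between the other groups.

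TPM1 encodes alpha-tropomyosin, made as muscle and non-muscle isoforms that gene counts do not separate. Its level was 229 and 198 CPM in ASO-Ctr, 245 and 197 CPM in sO-L1, and 257 and 227 CPM in ASO-L1. The groups overlapped, with replicate 1 above replicate 2 in each. TPM1 was 1.10-fold higher in ASO-L1 than in sO-L1 (log2 0.14 ± 0.05, adjusted p = 0.0261, or 0.630 without the block) and 1.14-fold higher than in ASO-Ctr (log2 0.18 ± 0.05, adjusted p = 0.00335, or 0.480 without the block). Against sO-L1 the value was 0.08 (adjusted p = 0.459) without sO-L1 replicate 2 and 0.09 (adjusted p = 0.333) without ASO-L1 replicate 2, and DESeq2 gave 0.14 (adjusted p = 0.0527). Against ASO-Ctr it was 0.17 (adjusted p = 0.0744) without ASO-Ctr replicate 1 and 0.14 (adjusted p = 0.131) without ASO-L1 replicate 2.

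MYL9 encodes the regulatory light chain of myosin II, whose phosphorylation switches contraction on. It had 30.4 and 32.1 CPM in ASO-Ctr, 26.2 and 28.01 CPM in sO-L1, and 26.9 and 28.6 CPM in ASO-L1. ASO-Ctr was above both L1 oligo groups with no overlap (48.6% of all genes did not overlap for ASO-L1 and 29.7% for sO-L1), and those groups overlapped each other. MYL9 fell by 0.17 ± 0.06 in ASO-L1 against ASO-Ctr (adjusted p = 0.0498), a call lost in 13 of 16 alternatives, among them the fit without the block (adjusted p = 0.35) and each omission of 1 library (adjusted p = 0.071 to 0.208). In sO-L1 against ASO-Ctr it was -0.20 ± 0.06 (95% interval -0.33 to -0.07, adjusted p = 0.109). ASO-L1 against sO-L1 gave 0.03 ± 0.06 (95% interval -0.10 to 0.16, adjusted p = 0.780).

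CNN1 (calponin 1), which restrains actomyosin in smooth muscle, had 8.50 and 8.16 CPM in ASO-Ctr, 7.22 and 7.91 CPM in sO-L1, and 6.25 and 8.21 CPM in ASO-L1. ASO-L1 spanned the other groups. None of its 3 tests passed: -0.06 ± 0.11 in ASO-L1 against sO-L1, -0.16 ± 0.11 in ASO-L1 against ASO-Ctr and -0.10 ± 0.11 in sO-L1 against ASO-Ctr (adjusted p = 0.749, 0.330 and 0.769). ACTA2, the smooth muscle actin, was the lowest of the 10, with 48 to 137 counts per library. It had 2.55 and 1.88 CPM in ASO-Ctr, 2.52 and 2.22 CPM in sO-L1, and 1.86 and 2.26 CPM in ASO-L1, all overlapping. Its log2 fold change was -0.18 ± 0.18 against sO-L1 (95% interval -0.53 to 0.18) and -0.01 ± 0.19 against ASO-Ctr (95% interval -0.39 to 0.38), with adjusted p = 0.537 and 0.987. ACTA2-AS1, antisense to ACTA2, had 0 to 5 counts per library. FAS, which starts beside ACTA2 on the other strand, had 157 to 543.

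Per kb of exon the 10 genes spanned a wide range. In ASO-Ctr the group means were 38.7 CPM per kb for KRT19, 36.3 for KRT18, 36.0 for VIM and 33.1 for KRT8, followed by 16.6 for TPM1, 11.1 for MYL9, 8.45 for LMNA, 5.16 for TAGLN, 2.89 for CNN1 and 0.744 for ACTA2. Each pair of neighbours among the first 4 overlapped between libraries, but KRT19 (38.5 to 38.8) and KRT8 (32.8 to 33.4) did not. In ASO-L1 VIM was first, at 67.23 ± 15.5 CPM per kb (mean ± SD, n = 2), above KRT19 at 52.8 ± 4.65, with its lower library (56.2) just above the higher KRT19 library (56.1). The ratio of VIM to KRT8 was 1.30 and 0.871 for ASO-Ctr, 1.12 and 0.832 for sO-L1, and 2.03 and 1.66 for ASO-L1. ACTB, the main non-muscle actin, had 1207 CPM per kb in ASO-Ctr. Exon lengths join all annotated transcripts of a gene and so understate the level of genes with many isoforms, such as TPM1. The joined lengths were 6.881 kb for KRT8 and 5.158 kb for VIM, against 3.218 kb for KRT18 and 2.336 kb for KRT19. The order of genes and the size of ratios between genes, here and above, depend on these lengths. Comparing the same ratio between libraries does not. The lengths come from GRCh38, whereas the counts were made on hg19.

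**Figure D3:**
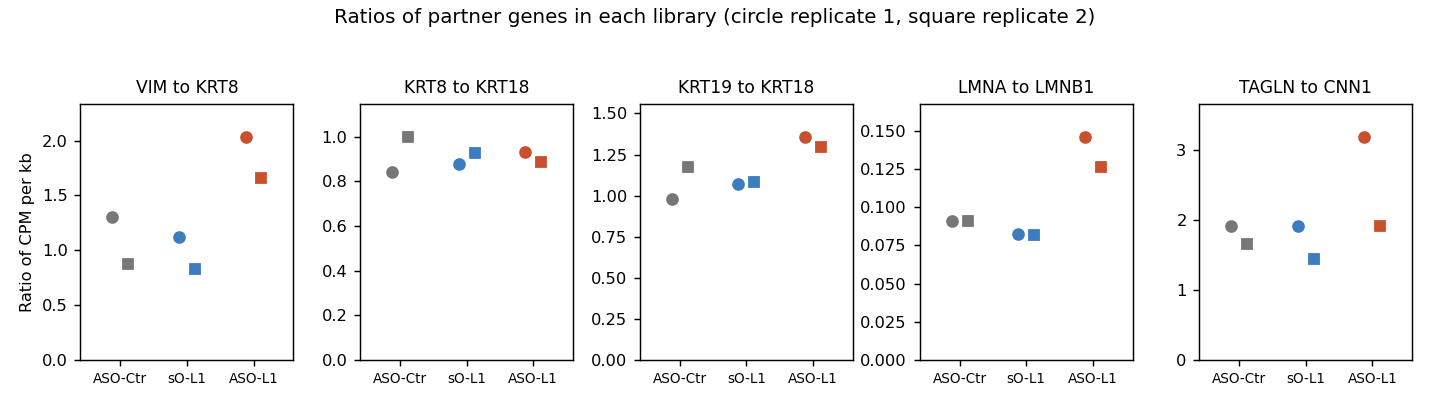
Ratios of CPM per kb of exon (vertical axis, from 0) between partner genes in each library, for ASO-Ctr, sO-L1 and ASO-L1 (circle replicate 1, square replicate 2). LMNA to LMNB1 and KRT19 to KRT18 are higher in both ASO-L1 libraries than in the others, and KRT8 to KRT18 overlaps between groups. The share of other gene ratios that separate like this was not computed.

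Promoter sequence was set beside these values for 3 genes: VIM and LMNA, which rose, and ACTA2, a textbook SRF target, which was not called. RefSeq (GRCh38.p14) windows of the 250 bases before a gene start were found for 6 of the 10 genes, 9 windows in all, and the 3 shown hold no annotated exon of their own gene. They are written 5′ to 3′ on the gene's strand, with motif matches in capitals. VIM is chr10:17227991-17228240 on the plus strand, LMNA chr1:156082323-156082572 on the plus strand and ACTA2 chr10:88952774-88953023 on the minus strand.
VIM: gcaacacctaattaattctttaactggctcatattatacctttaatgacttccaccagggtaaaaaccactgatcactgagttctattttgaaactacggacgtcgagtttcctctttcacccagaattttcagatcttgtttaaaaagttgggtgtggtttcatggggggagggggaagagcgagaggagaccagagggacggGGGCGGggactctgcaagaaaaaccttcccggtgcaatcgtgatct
LMNA: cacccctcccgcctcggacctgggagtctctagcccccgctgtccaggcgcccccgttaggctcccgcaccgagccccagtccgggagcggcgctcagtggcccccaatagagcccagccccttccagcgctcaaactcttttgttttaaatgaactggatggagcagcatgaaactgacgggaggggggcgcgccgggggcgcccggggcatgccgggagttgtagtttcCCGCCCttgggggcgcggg
ACTA2: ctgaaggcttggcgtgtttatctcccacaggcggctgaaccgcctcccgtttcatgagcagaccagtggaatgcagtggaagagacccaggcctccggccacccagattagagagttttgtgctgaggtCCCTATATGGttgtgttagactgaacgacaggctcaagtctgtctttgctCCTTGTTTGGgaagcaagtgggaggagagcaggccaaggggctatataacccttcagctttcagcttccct

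Both strands were searched for the CArG box (the SRF element) and for a CArG-like element in which at most 1 base of the A/T core is G or C. The AP-1 site TGANTCA, the TATA box TATAAA and the GC box GGGCGG were searched as well. Capitals in VIM and LMNA mark 1 GC box each, 41 to 46 and 14 to 19 bases before the start. A GC box is present in 42.6% of all 35116 windows. In ACTA2 the capitals are 2 CArG-like elements, 62 to 71 and 112 to 121 bases before the start. A CArG-like element, strict boxes included, stands in 7.04% of all windows and a strict CArG box in 1.16%. No other window found for these genes held either, including the other ACTA2 window, at the start 88991337, which held GC boxes instead. GC boxes also stood in the other LMNA windows and in that of TPM1, which rose. The window of CNN1, which was not called, held a GC box too, and that of KRT8, not called, held no match. KRT18, KRT19, TAGLN and MYL9 had no window and were not searched, so TAGLN and KRT19, which rose, are left out of this comparison. AP-1 and TATA matches, in 6.57% and 10.7% of all windows, were in none of the 9 windows of these genes. Matches are letters only and do not show binding.

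The lists around the contractile genes are likewise read against 23.0% of all genes called against sO-L1 and 21.5% against ASO-Ctr. In sO-L1 against ASO-Ctr the share was 1.72%. Of 5 other actins, 0 were called against sO-L1 and 1 was lower against ASO-Ctr. The non-muscle actins ACTB and ACTG1 had log2 fold changes of 0.01 ± 0.05 and 0.10 ± 0.05 against sO-L1 (adjusted p = 0.948 and 0.117). Of 13 further tropomyosins, calponins, transgelins and their partners, 1 was higher and 0 lower against sO-L1, and 3 and 0 against ASO-Ctr, with medians of 0.09 and 0.04. TAGLN2 (transgelin 2), the non-muscle relative of TAGLN, rose by 0.58 ± 0.06 and 0.54 ± 0.06 (adjusted p = 1.3e-10 and 1.8e-09, or 0.0247 and 0.032 without the block). The tropomyosin TPM2 and the calponin CNN3 did not pass against sO-L1 (0.11 ± 0.05 for each, adjusted p = 0.0973 and 0.0766), and both were called against ASO-Ctr (0.25 ± 0.05 and 0.13 ± 0.05, adjusted p = 6.1e-05 and 0.0309, or 0.348 and 0.560 without the block).

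Of 22 genes of myosin II and its regulators, 5 were higher and 2 lower against sO-L1, 2 and 2 against ASO-Ctr, and 0 and 0 in sO-L1 against ASO-Ctr. Without the block 0 were called in each. There 1, 3 and 0 had an unadjusted p under 0.05, beside 16.5%, 16.7% and 2.97% of all genes. The medians of the 22 were -0.02, 0.05 and 0.01. The heavy chains MYH9 and MYH10 did not pass against sO-L1 (0.12 ± 0.05 and -0.03 ± 0.05, adjusted p = 0.0537 and 0.706). RHOB, a small GTPase of actin regulation, rose by 0.44 ± 0.07 and 0.50 ± 0.07 in the ASO-L1 comparisons (adjusted p = 1.2e-06 and 1.4e-07, or 0.187 and 0.130 without the block). MYLK, the kinase that phosphorylates myosin light chains, fell by 0.36 ± 0.07 and 0.45 ± 0.08 (adjusted p = 1.7e-04 and 7.0e-06, or 0.313 and 0.191 without the block). CDC42BPA, a kinase related to ROCK, was higher against sO-L1 (0.25 ± 0.05, adjusted p = 3.0e-04, or 0.362 without the block) and had 0.09 ± 0.05 against ASO-Ctr (adjusted p = 0.241).

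Of 25 crosslinkers and focal adhesion genes, 8 were higher and 1 lower against sO-L1 (10.3% and 12.7% of all genes), and 7 and 3 against ASO-Ctr (9.88% and 11.6%), with medians of 0.09 and 0.06 (2 and 0, and 2 and 1, without the block). In sO-L1 against ASO-Ctr, 0 were higher and 1 lower. FLNC (filamin C), an actin crosslinker of muscle, rose by 0.94 ± 0.06 against sO-L1 and 0.98 ± 0.07 against ASO-Ctr (adjusted p = 3.7e-16 and 2.9e-16, or 0.0303 and 0.028 without the block). Paxillin (PXN), an adhesion scaffold, rose by 0.49 ± 0.05 and 0.38 ± 0.05 (adjusted p = 3.7e-10 and 2.3e-07, or 0.0192 and 0.043 without the block). LPP, a LIM protein of adhesions, fell by 0.48 ± 0.06 and 0.96 ± 0.06, and by 0.48 ± 0.06 in sO-L1 against ASO-Ctr (adjusted p = 5.7e-09, 2.3e-18 and 1.2e-07). Without the block LPP was called against ASO-Ctr (adjusted p = 0.0161) but not against sO-L1 (0.130) or in sO-L1 against ASO-Ctr (1.0). Of 12 regulators around SRF and the MRTFs, 1 was higher and 1 lower in each ASO-L1 comparison, and 0 were called without the block. In edgeR without the block, 1 and 2 had an unadjusted p under 0.05, beside 16.5% and 16.7% of all genes. The SRF partner ELK4 rose by 0.48 ± 0.06 and 0.45 ± 0.06 (adjusted p = 2.7e-08 and 2.5e-07, or 0.127 and 0.147 without the block) and the formin FHOD1 fell by 0.20 ± 0.06 and 0.21 ± 0.06 (adjusted p = 0.0126 and 0.0122, or 0.319 and 0.297 without the block). SRF itself was at -0.00493 ± 0.05 and -0.00318 ± 0.05 (adjusted p = 0.960 in the first).

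**Figure D4:**
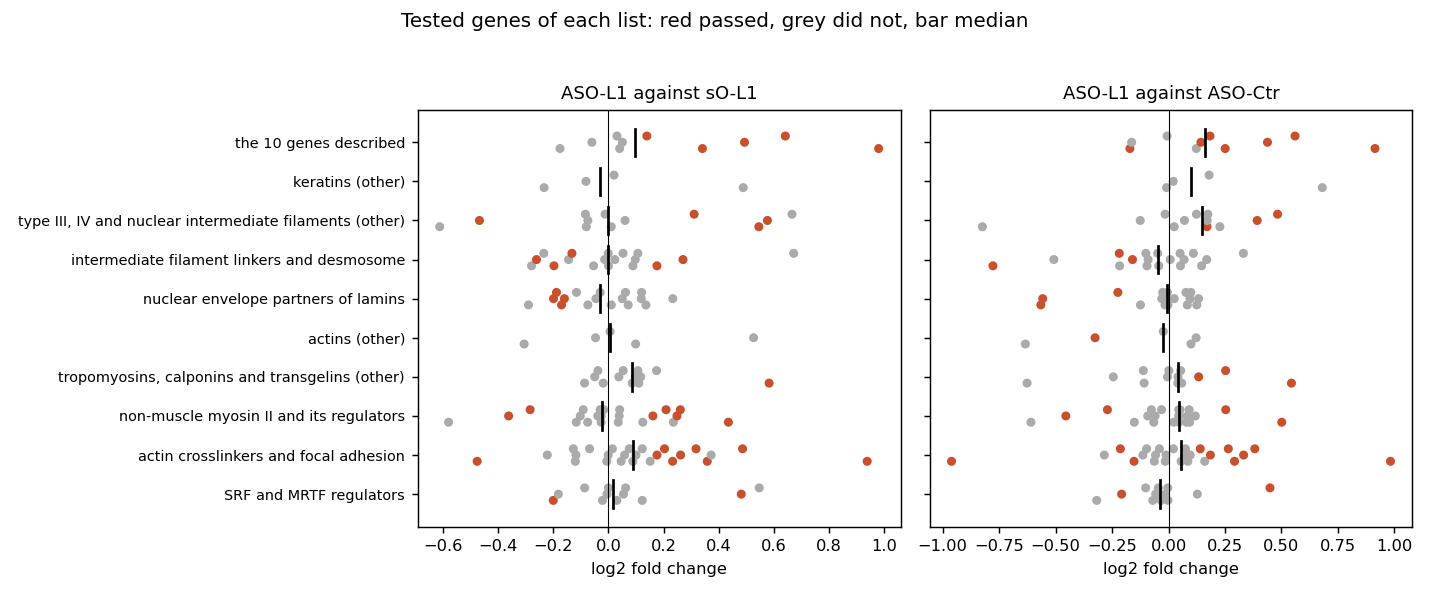
Log2 fold changes (horizontal axis) of the tested genes of each list (rows) in ASO-L1 against sO-L1 and against ASO-Ctr. Red points passed at an adjusted p under 0.05, grey points did not, and bars are medians. FLNC (0.94 and 0.98) lies far to the right of its list and LPP (-0.48 and -0.96) far to the left.

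Markers of other cells were read beside these genes. A marker counted as detected if any library held at least 1 count. Smooth muscle markers summed to 21.2 to 23.3 CPM in ASO-Ctr, 19.0 to 19.4 CPM in sO-L1 and 22.6 to 23.3 CPM in ASO-L1, of which SYNM alone was 8.51 to 13.01, with all 9 detected in some library and CASQ2 at 0 in sO-L1 and ASO-L1. Of the tested genes of that list only SYNM was called in ASO-L1 against sO-L1. There MYOCD, MYH11, LMOD1 and KCNMB1 had log2 fold changes of 0.55, 0.24, 0.10 and 0.06. DES, ACTG2 and SYNPO2 had -0.61, -0.31 and -0.09 (adjusted p = 0.141 to 0.938 for these and the former genes). Fibroblast and mesenchyme markers summed to 410.5 to 418, 397 to 409 and 413 to 414 CPM. THY1 alone gave 226 to 257 CPM, most of this sum, and COL1A2 gave 85.5 to 108 CPM. All 11 were detected, but DCN and LUM, which define fibroblasts, had 1 and 8 counts in all libraries together. The tested genes of that list did not move together: in ASO-L1 against sO-L1 COL1A1 had a log2 fold change of 0.63 (adjusted p = 3.3e-09) and POSTN 0.21 (adjusted p = 0.276), while PDGFRA had -0.43, PDGFRB -0.15, COL1A2 -0.09, COL3A1 -0.08 and THY1 -0.05 (adjusted p = 0.112 to 0.930). Neural markers summed to 578 to 583, 598 to 613 and 627 to 633 CPM, with 8 of 8 detected. Most of this was NES (307 to 360 CPM) and TUBB3 (196 to 220 CPM), not called in ASO-L1 against sO-L1 (adjusted p = 0.390 and 0.359). There STMN2 was higher (log2 0.63, adjusted p = 2.1e-04) and MAP2 had 0.02 (adjusted p = 0.848). PAX6, SOX1 and DCX had -0.25, -0.32 and -0.21 (adjusted p = 0.142 to 0.485), and NEUROD1 had 6 counts in all libraries together. Trophoblast and amnion markers summed to 20.8 to 23.5, 21.8 to 26.5 and 22.3 to 25.4 CPM with 10 of 12 detected, and HAND1 and VGLL1 were at 0. Most of that sum was KRT7 (9.56 to 10.9 CPM) and IGFBP3 (9.24 to 14.3 CPM). CGA, CDX2, ISL1 and GATA3 had 1, 2, 10 and 12 counts in all libraries together. Of the mesoderm and endoderm markers, SOX17, GATA4, GATA6 and GSC had 8, 9, 9 and 7. For surface epithelium the sums were 5.47 to 8.25, 6.64 to 8.71 and 6.47 to 7.83 CPM, with 5 of 6 detected and KRT14 at 0, and for mesoderm and endoderm 4.62 to 4.96, 5.31 to 5.41 and 3.82 to 4.21 CPM with 9 of 9 detected. In the last list FOXA2 was lower in ASO-L1 than in sO-L1 (log2 -1.13, adjusted p = 3.0e-07) and EOMES was higher (log2 1.13, adjusted p = 0.0406), at 1.61 to 3.84 and 0.264 to 0.833 CPM in those libraries. The part of these marker levels in the changes of VIM, TAGLN and KRT19 was not tested.

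The genes whose profile over the 6 libraries came closest to that of each of the 10 were found by the root mean square distance of centred log2 CPM, among 12882 genes. For VIM they were FLNC (distance 0.13) and GLIPR1L1 (0.14), where the median gene was 0.53 away. For LMNA they were RASSF10 (0.03) and CDKN1A (0.04), with a median of 0.32. For TAGLN they were S1PR3 (0.04) and ZFAND2A (0.07), and for KRT19 NMRK2 (0.02). CNN1 was closest to ACTN3 (0.04). Since 6 libraries of 3 groups and 2 replicate numbers fix these profiles, closeness is a description only.

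The authors' deposited table gives its own values for ASO-L1 against sO-L1, and 5 of the 10 genes had an adjusted p under 0.05 in it. In the authors' deposited table the log2 fold change was 0.99 for VIM, 0.65 for LMNA, 0.50 for TAGLN, 0.35 for KRT19 and 0.15 for TPM1 (adjusted p = 1.3e-17, 4.0e-11, 4.0e-06, 2.9e-06 and 0.0132 by a method not given in the sources used here). The other 5 genes lay between -0.17 for ACTA2 and 0.06 for KRT8 in the authors' deposited table, with adjusted p-values from 0.375 to 0.827.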

How the data were processed

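RNA of 6 libraries of H9 cells was measured, 2 each of ASO-Ctr, sO-L1 and ASO-L1, grouped by the titles in the labels. Per the submitters' processing notes, reads were handled with Trim Galore 0.4.0, TopHat2 2.0.13 and featureCounts of Subread 1.5.0, with hg19. The authors deposited unnormalized counts for each gene symbol, and their table's name says that duplicates were taken out. The library kit is directional, but how the counting treated strand is not given in the sources used here, so values of antisense or overlapping genes are uncertain. Log2 values deposited by the authors are normalized and batch-corrected and were used only to check the column order. The authors' deposited comparison table holds log2 fold changes and p-values whose adjustment is not stated.

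Of 53807 entries, 92 spike-ins (0 to 4 counts per library) were left out. Genes with filterByExpr (minimum count 10, minimum total 15) were scaled by TMM, and edgeR 4.0.16 (R 4.3.3) made the fit (robust quasi-likelihood, group and replicate number, 2 residual degrees of freedom). SE is the size of the log2 fold change divided by the root of F, and 95% intervals use the moderated degrees of freedom. The block follows the batch-corrected table named in the labels, which leave unsaid what a replicate number marks. Replicate differences correlated between groups across 12883 genes (0.620, 0.536 and 0.641), which are not independent replicates, so the pairing is a hint and not established.

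The members and lists were chosen with earlier results of these data known. All 10 members are named, and from each of 9 lists up to 3 genes with the smallest p in ASO-L1 against sO-L1, besides MYH9, MYH10, ACTB, ACTG1, LMNB1, SRF and KRT7. Alternatives were other scalings and filters, DESeq2 1.42.0, limma-voom (limma 3.58.1), no block, 4 libraries, a threshold of 0.1, thinning to the shallowest library and leaving out each library. The procedure was also run on simulated data. The replicate shifts set there were smaller than the typical replicate differences seen here, so that run does not bear on calls that depend on the block. Exon lengths and positions come from GENCODE v29 and promoter windows from RefSeq.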

Additional observations from a re-analysis of the deposited data

How the results depend on the processing

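Of 480 values of the 10 genes under 16 alternatives, 425 kept their direction and their side of the threshold, 35 lost a call, 6 gained 1 and 14 changed sign. The 425 include TAGLN, ACTA2, MYL9 and CNN1 for sO-L1 over ASO-Ctr with DESeq2, which gave them no adjusted p. None of the 14 belonged to a called value. For ASO-L1 over ASO-Ctr they were ACTA2 at 0.00596 with no filter, 0.0137 with limma-voom and 0.0429 when thinned, and -0.353 to 0.22 when 1 library was left out. For ASO-L1 over sO-L1, thinning gave 0.0181 for CNN1 and -0.0179 for KRT18, and leaving out 1 library gave -0.499 to 0.0728 for ACTA2, -0.26 to 0.0869 for CNN1, -0.0125 to 0.0902 for KRT18 and -0.0127 to 0.113 for KRT8. For sO-L1 over ASO-Ctr, leaving out 1 library gave -0.15 to 0.338 for ACTA2, -0.311 to 0.0114 for CNN1 and -0.0138 to 0.107 for TPM1.

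Genes called numbered 4412 for ASO-L1 over sO-L1, 4120 for ASO-L1 over ASO-Ctr and 330 for sO-L1 over ASO-Ctr. In this order they were 352, 374 and 0 without the replicate block in edgeR (569 at an unadjusted p under 0.05 in the last), 2355, 2436 and 125 with DESeq2, and 2001, 2181 and 80 when thinned. The last was 168 with limma-voom, 516 with 4 libraries and 520 at a threshold of 0.1. Leaving out 1 library gave 1802 to 4702, 2336 to 3693 and 9 to 496. The first was 2041 without ASO-L1 replicate 1, 1802 without sO-L1 replicate 1 and 2344 without sO-L1 replicate 2. The second was 2378 without ASO-Ctr replicate 1 and 2336 without ASO-L1 replicate 1. The third was 9 without sO-L1 replicate 1, 178 without sO-L1 replicate 2, 87 without ASO-Ctr replicate 1 and 496 without ASO-L1 replicate 2. Of the 10 genes, 5, 7 and 0 were called, and 1, 2 and 0 without the replicate block. DESeq2 called 4 for ASO-L1 over ASO-Ctr, and a threshold of 0.1 gave 1 (TAGLN, lower) for sO-L1 over ASO-Ctr. Leaving out 1 library gave 4 to 5, 4 to 6 and 0 to 0, with 4 in the second without ASO-Ctr replicate 1. A group left with 1 library is assumed to vary like the others. Fewer libraries or counts enter the fits that leave out a library or thin the counts, and the cause of the other shifts was not tested. A count of 0 allows 0.0437 to 0.159 CPM per library (3 counts, counting error only).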
